A study of Mus musculus with 12 samples.

Results

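The mouse retina holds 8 genes of cholesterol synthesis that are described here across genotype and age: Srebf2, Hmgcs1, Idi1, Fdft1, Sqle, Lss, Cyp51 and Dhcr7. They were taken by name from a table of 55487 genes, and all 8 were present and passed the filter on low counts that left 16233 genes for testing. None of the 8 is an uptake gene, so the receptors and carriers of cholesterol are given with the wider pathway further on. The samples were whole retinas, not sorted by cell type, in 4 groups of 3 libraries: 5xFAD mice at 6 months, WT mice at 6 months, 5xFAD mice at 1 month and WT mice at 1 month. The 5xFAD mice carry the strain label Tg6799, a line that expresses mutant human transgenes from the neuronal Thy1 promoter and is used as a model of Alzheimer's disease. The WT mice were C57BL/6J, and no treatment is given for any group. Polyadenylated RNA was sequenced to learn how the retinal transcriptome, retained introns included, differs with genotype and age. Sex, and whether each library came from a separate animal or from pooled retinas, are not given. The library is therefore the unit of every test, and whether a p-value covers the spread between animals is not known.

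Cells make cholesterol from acetyl-CoA through the mevalonate pathway, in which isoprenoid units are joined to squalene, closed to the ring of lanosterol and then trimmed to cholesterol. When sterols in the endoplasmic reticulum fall, the transcription factor SREBP2, the product of Srebf2, is cut free from its membrane and switches on most genes of the route. Photoreceptor outer segments and neuronal membranes are rich in cholesterol, and the retina both makes cholesterol and takes it up from the blood, with Müller glia known as a main site of synthesis. SREBP1, the product of Srebf1, works in the same way on genes of fatty acid synthesis.

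The 3 promoters below belong to Srebf2, Hmgcs1 and Lss. These genes were called lower at 6 than at 1 month in 5xFAD retinas (edgeR adjusted p below 0.05). The Hmgcs1 and Lss calls were lost in some other fits, which are given with each gene below. Each line is the 250 bases before an annotated start, 5′ to 3′ on the gene's strand, from RefSeq on GRCm38.p6. Srebf2 lies at chr15:82147181-82205379 on the plus strand, Hmgcs1 at chr13:119690379-119708260 on the plus strand and Lss at chr10:76531588-76557138 on the plus strand, and the windows are chr15:82147019-82147268, chr13:119690101-119690350 and chr10:76531355-76531604. The gene spans come from GENCODE, and the RefSeq starts behind the windows differ from theirs. The Srebf2 and Lss windows therefore reach into the spans given, and the Hmgcs1 window ends before its span. Capitals mark the letters TCACNCCAC, a 9-letter form of the sterol regulatory element, and the CCAAT box of the factor NF-Y, in either orientation (ATTGG on the printed strand).
Srebf2: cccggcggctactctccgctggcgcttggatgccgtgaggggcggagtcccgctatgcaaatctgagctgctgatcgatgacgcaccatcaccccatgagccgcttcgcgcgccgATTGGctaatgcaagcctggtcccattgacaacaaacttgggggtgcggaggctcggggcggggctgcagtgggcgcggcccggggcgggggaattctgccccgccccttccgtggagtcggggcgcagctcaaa
Hmgcs1: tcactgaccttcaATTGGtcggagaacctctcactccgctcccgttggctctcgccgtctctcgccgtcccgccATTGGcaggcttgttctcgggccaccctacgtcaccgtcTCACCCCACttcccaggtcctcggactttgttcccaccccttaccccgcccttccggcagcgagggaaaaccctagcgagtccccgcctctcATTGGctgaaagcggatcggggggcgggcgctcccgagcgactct
Lss: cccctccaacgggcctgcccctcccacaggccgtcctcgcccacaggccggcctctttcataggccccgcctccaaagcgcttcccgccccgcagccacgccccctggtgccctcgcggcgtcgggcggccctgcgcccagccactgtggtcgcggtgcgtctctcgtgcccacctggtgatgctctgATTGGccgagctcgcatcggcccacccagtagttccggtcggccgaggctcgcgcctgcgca
RefSeq windows were at hand for 6 of the 8 genes, 8 windows in all. On either strand, TCACNCCAC stood in 1 of the 8, that of Hmgcs1, where TCACCCCAC ran from 137 to 129 bases before the start. A longer form that was also searched, the same letters with an A before them, stood in 0 of the 8 and in 0.192% of all windows. The shorter one stood in 1.05% of the 32851 windows of the same length over all genes. The CCAAT box stood in 6 of the 8 windows and in 33.8% of all windows, the Sp1 box GGGCGG in 7 of the 8 and in 32.7% of all, and the E-box CACGTG in 1 of the 8 and in 6.02% of all. These matches describe letters, and no binding was measured.

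The libraries held 10.9 to 19.6 M expected counts. Rod markers, the signature of retina, summed to 42600 to 55900 CPM, counts scaled to a common library total, in every library. Some features of the libraries moved with the groups. The mean length of the counted transcripts was 3615 to 3720 nt in 5xFAD and 3692 to 4022 nt in WT at 6 months, against 4219 to 4249 nt in 5xFAD and 3553 to 3790 nt in WT at 1 month. Ribosomal RNA reached 1.112% of a 5xFAD library at 6 months and 0.327% of a WT library at 1 month. Mitochondrial genes took 5.021 to 5.113% of the counts in 5xFAD and 5.685 to 6.7% in WT at 6 months, and 2.951 to 3.161% in 5xFAD and 4.228 to 5.85% in WT at 1 month. That share did not overlap between the genotypes at either age, nor between the ages in 5xFAD. At 1 month, 10 markers of pigment epithelium and choroid summed to 24.9 to 37.1 CPM in 5xFAD and 74 to 155 CPM in WT, with 5 of the 7 tested called lower, and Mlana was at 0 in 5xFAD. The 4 endothelial markers summed to 190 to 205 CPM in 5xFAD and 117 to 131 CPM in WT. Most of the endothelial sum, at both ages, was Kdr (at 1 month 172 to 185 CPM in 5xFAD and 106 to 111 CPM in WT). At 1 month Cldn5 and Pecam1 overlapped between the genotypes, and Cdh5 lay higher in 5xFAD. The 5 lens markers summed to 5.47 to 53.3 CPM in 5xFAD and 0 to 0.629 CPM in WT, with Cryba1, Crygs and Mip at 0 in WT. At 6 months endothelial markers summed to 76.7 to 90.3 CPM in 5xFAD and 108 to 146 CPM in WT, and the 8 Müller glia markers to 3340 to 3540 CPM in 5xFAD and 3690 to 3990 CPM in WT. Amacrine markers also lay lower in 5xFAD at 6 months (537 to 603 against 649 to 682 CPM in WT), while those of rods (51000 to 55100 against 42600 to 46000 CPM in WT), cones (1340 to 1480 against 1000 to 1100 CPM in WT) and astrocytes (26.4 to 26.6 against 20.2 to 23.9 CPM in WT) lay higher. Single markers did not all follow these sums. Called lower at 6 months were 1 of 8 Müller glia, 1 of 4 endothelial and 1 of 4 amacrine markers. Called higher were 2 of 7 rod and 3 of 5 cone markers, where 6.38% of all tested genes were called. The log2 fold change was above 0 for 2 of the 8 Müller glia markers, Rlbp1 among them (384 to 421 against 335 to 381 CPM in WT). At 1 month cone markers (943 to 1130 CPM in 5xFAD against 1190 to 1430 CPM in WT) and microglia markers (13.5 to 16.1 against 19.6 to 24.9 CPM in WT) lay lower in 5xFAD, and rod markers higher (52300 to 55900 against 46500 to 50000 CPM in WT). Called there were 2 of 5 cone markers as lower, and 2 of 7 rod and 1 of 4 endothelial markers as higher. The 8 Müller glia markers overlapped in sum at 1 month (3050 to 3390 CPM in 5xFAD against 3130 to 3350 CPM in WT). Of these 8, 2 were called higher and 2 lower. All tested genes were called at a share of 19.6% at that age. No microglia or astrocyte marker was called between genotypes at either age. The part of tissue composition in the results below was not tested, and in whole tissue fewer cells of a type and less RNA per cell cannot be told apart.

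Per transcript length, Hmgcs1 was the most abundant of the 8, with a mean of 105 TPM, counts scaled for transcript length and depth, over the 12 libraries, a range of 67.9 to 142 TPM, and more than 90.2% of tested genes below it. Srebf2 followed with 79.7 TPM, Fdft1 with 58.5 TPM and Idi1 with 42.7 TPM. Sqle, Cyp51, Lss and Dhcr7 lay between 34 and 37 TPM. Hmgcs1 was above Srebf2 in 12 of 12 libraries, and Srebf2 above Fdft1 and Fdft1 above Idi1 in 11 of 12 each. The last 4 were not separated, since Cyp51 exceeded Lss, and Lss exceeded Dhcr7, in only 7 of 12 libraries.

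**Figure D1:**
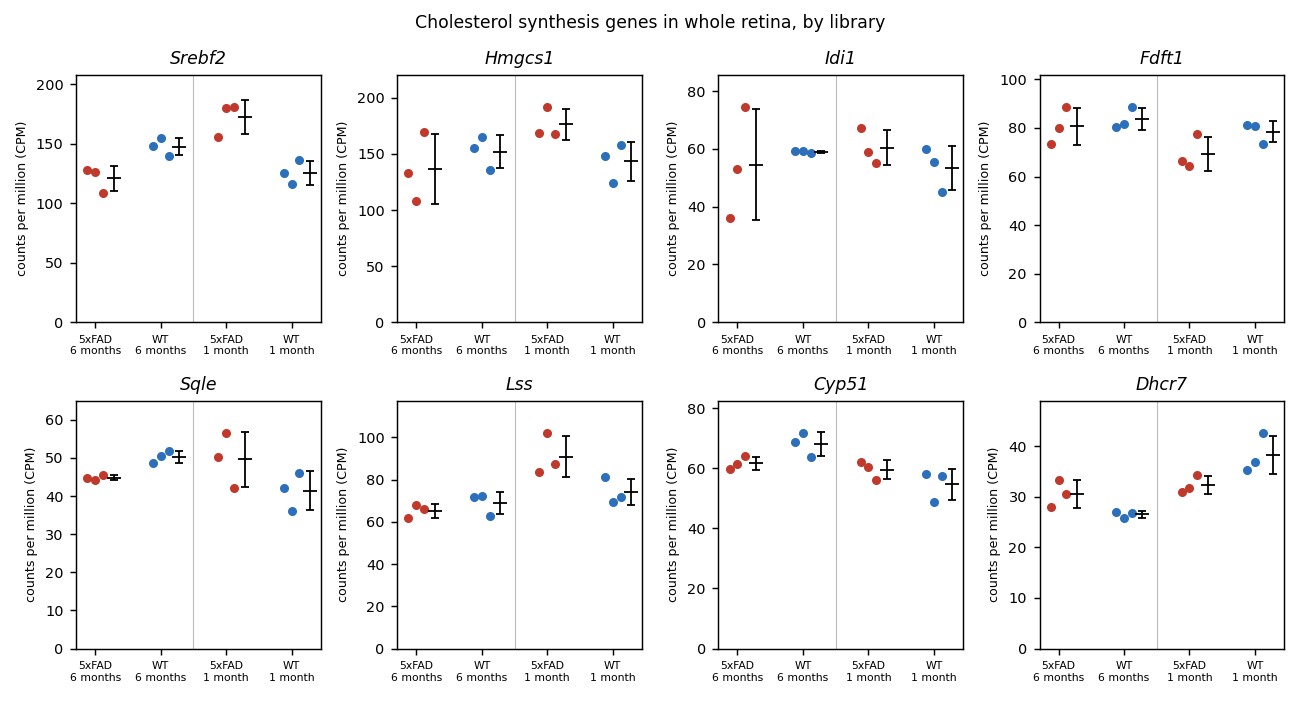
CPM (vertical axis, from 0) of each of the 8 genes in the 3 libraries of each group (horizontal axis), with 5xFAD in red and WT in blue, and the mean with its SD in black. The Srebf2 points of 5xFAD lie below those of WT at 6 months, at 109 to 128 CPM, and above them at 1 month, at 156 to 181 CPM.

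Between 5xFAD and WT retinas, few of the 8 genes were called. At 6 months none of the 8 passed an adjusted p below 0.05 (edgeR quasi-likelihood test, Benjamini-Hochberg over all genes), where 6.38% of all tested genes did. Only Srebf2 was below an unadjusted p of 0.05 there, and DESeq2 called that 1 gene lower. At 1 month 1 of the 8, Srebf2, was called higher, against 19.6% of all tested genes called in either direction and 10.7% called higher. The median log2 fold change of the 8 was -0.13 at 6 months and 0.22 at 1 month, beside 0 and -0.04 over all tested genes. At 6 months 1 of the 8 was above 0, against 8171 of all 16233 tested genes, and at 1 month 6 of the 8, against 7467 of all. After each library was adjusted for transcript length and GC content, the median of the 8 was -0.01 at 6 months and 0.03 at 1 month, with 4 and 5 of the 8 above 0. Leaving out the 3 libraries high in ribosomal RNA gave a 6-month median of 0.01, with 4 of the 8 above 0. The 3 libraries of each genotype did not overlap for 3 of the 8 genes at 6 months, against 24.2% of all tested genes, and for 4 of the 8 at 1 month, against 37.6%. In a set of 8, 1 gene is a share of 12.5%. The counts called and the counts without overlap were therefore near the shares of all tested genes.

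With age, 3 of the 8 genes were called lower at 6 than at 1 month in 5xFAD retinas, Srebf2, Lss and Hmgcs1, against 23.2% of all tested genes called in either direction and 12.4% called lower. In WT retinas 1 of the 8, Dhcr7, was called lower, against 10.5% of all tested genes in either direction and 4.49% lower. The 6-month and 1-month libraries did not overlap for 2 of the 8 genes in 5xFAD, against 36.5% of all tested genes, and for 4 of the 8 in WT, against 30.7%. In the test of the interaction, the genotype difference at 6 months minus that at 1 month, 1 of the 8 was called, Srebf2, with a negative value, against 25.0% of all tested genes called in either direction and 13.3% with a negative value. The comparisons share groups: the 5xFAD libraries at 1 month, for example, enter the genotype comparison at that age, the age comparison in 5xFAD and the interaction.

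**Figure D2:**
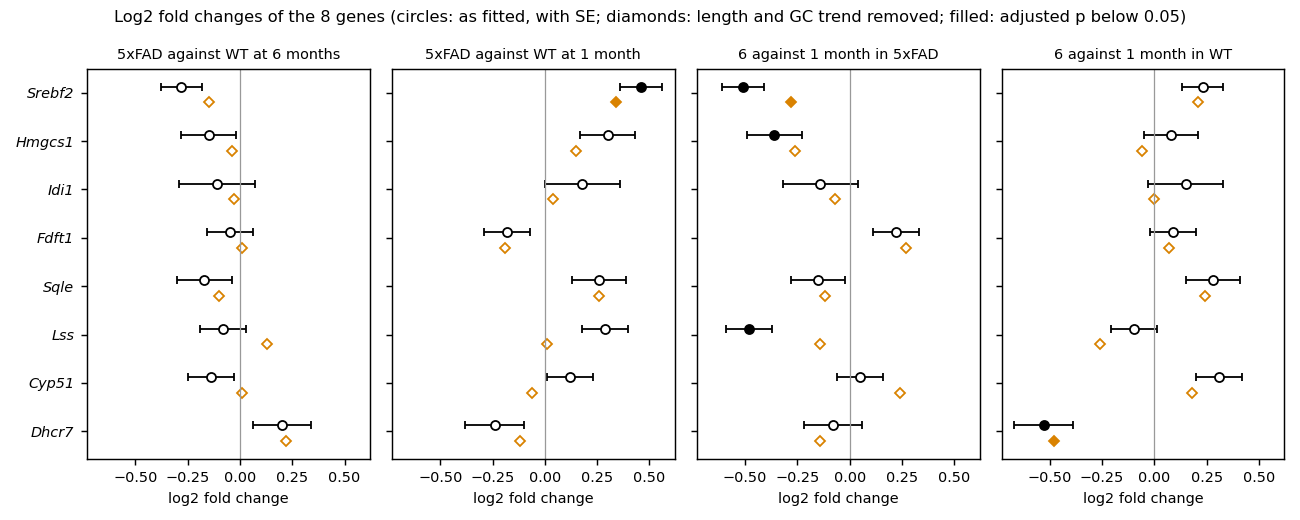
Log2 fold changes (horizontal axis) of the 8 genes (vertical axis) in 4 comparisons, as black circles with standard errors, and, as orange diamonds, after adjusting each library for how its levels depend on transcript length and GC content. Filled symbols have an adjusted p below 0.05. Srebf2 is filled in both forms at 1 month and with age in 5xFAD, whereas the Lss value with age in 5xFAD moves from -0.48 to -0.14 and loses its fill.

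Srebf2, which encodes the transcription factor SREBP2 itself, had the smallest p of the 8 genes in every comparison but that of 6 with 1 month in WT. The 6-month values were 128, 126 and 109 CPM in 5xFAD, against 148, 155 and 140 CPM in WT. The 1-month values were 156, 180 and 181 CPM in 5xFAD, against 125, 116 and 136 CPM in WT. Every 5xFAD library thus lay below every WT library at 6 months and above every WT library at 1 month. The log2 fold change at 6 months was -0.28 ± 0.10 (SE, n = 3 libraries each), which missed the threshold (edgeR adjusted p = 0.0864) and passed it in DESeq2 (adjusted p = 0.0467). At 1 month Srebf2 was higher in 5xFAD by 0.46 ± 0.10, a fold of 1.37 (edgeR adjusted p = 0.00203). The interaction was -0.74 ± 0.14 (edgeR adjusted p = 0.000405). With age it fell by 0.51 on the log2 scale in 5xFAD (-0.51 ± 0.10, edgeR adjusted p = 0.000678), while in WT its value was 0.23 ± 0.10 and was not called (edgeR adjusted p = 0.146).

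The 1-month, interaction and 5xFAD age calls of Srebf2 held without any 1 of the 12 libraries, and the 1-month value then ran from 0.40 to 0.54. They also held without the 3 libraries high in ribosomal RNA. Adjusting each library for transcript length and GC content left all 3 called but smaller: 0.34 at 1 month (edgeR adjusted p = 0.0054), -0.49 for the interaction (edgeR adjusted p = 0.0023) and -0.28 with age in 5xFAD (edgeR adjusted p = 0.0161). The microRNA gene Mir33, which lies within Srebf2, had 0 counts in all 12 libraries. Because the RNA was poly-A selected, these counts do not measure the mature microRNA.

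Hmgcs1 encodes the HMG-CoA synthase that feeds the mevalonate pathway. In 6-month retinas it stood at 133, 108 and 170 CPM in 5xFAD, against 155, 165 and 136 CPM in WT. In 1-month retinas it stood at 169, 192 and 168 CPM in 5xFAD, against 148, 124 and 158 CPM in WT. The genotypes overlapped at 6 months (log2 fold change -0.15 ± 0.13, edgeR adjusted p = 0.589), and at 1 month all 5xFAD libraries were above WT without passing the threshold (0.30 ± 0.13, edgeR adjusted p = 0.115). Among the 12 fits that left out 1 library, the 1-month difference passed in 1, without 5xFAD library 3 at 6 months (0.32, edgeR adjusted p = 0.0367). The interaction of -0.45 ± 0.18 missed it (edgeR adjusted p = 0.0816), and passed without WT library 3 at 1 month (-0.57, edgeR adjusted p = 0.0474), without 5xFAD library 3 at 6 months (-0.68, edgeR adjusted p = 0.00287) or without WT library 3 at 6 months (-0.52, edgeR adjusted p = 0.049). With age in 5xFAD it was called lower by the narrowest margin (-0.36 ± 0.13, edgeR adjusted p = 0.048), although 1 library at 6 months, with 170 CPM, reached the 1-month range. That call was lost in 9 of 12 fits that left out 1 library: any of the 3 5xFAD libraries at 1 month, 5xFAD library 1 or 2 at 6 months, WT library 1 or 3 at 1 month, or WT library 1 or 2 at 6 months. The value ran from -0.57 to -0.22 over the 12 fits, and it was -0.04 without the 3 libraries high in ribosomal RNA (edgeR adjusted p = 0.904). Hmgcs1 overlaps the antisense gene Gm48342 over 557 exon bases, but that gene averaged only 0.094 CPM.

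Idi1 encodes the isomerase that interconverts the isoprenoid building blocks. At 6 months it had 36.2, 53 and 74.6 CPM in 5xFAD, against 59.2, 59.4 and 58.7 CPM in WT. Among the 1-month libraries it had 67.1, 59.1 and 55.1 CPM in 5xFAD, against 59.9, 55.5 and 45.1 CPM in WT. The 5xFAD libraries at 6 months spread on both sides of the tight WT values, with a coefficient of variation of 35.2% in 5xFAD and 0.606% in WT. Idi1 was called in no comparison (edgeR adjusted p from 0.445 to 0.792). The lowest library, 5xFAD library 1 at 6 months, also held the highest share of ribosomal RNA (1.112%), and without it the log2 fold change at 6 months was 0.09 instead of -0.11 and the change with age in 5xFAD 0.07 instead of -0.14. Without 5xFAD library 3 at 6 months, the highest, both the change with age in 5xFAD (-0.45, edgeR adjusted p = 0.0328) and the interaction (-0.63, edgeR adjusted p = 0.0224) passed the threshold.

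Fdft1 encodes squalene synthase, the first step committed to sterols. The 6-month values were 73.6, 79.9 and 88.6 CPM in 5xFAD, against 80.6, 81.7 and 88.7 CPM in WT. At 1 month it had 66.3, 64.5 and 77.5 CPM in 5xFAD, against 81.2, 80.9 and 73.5 CPM in WT. The genotypes overlapped at both ages, and the log2 fold change was -0.05 ± 0.11 at 6 months and -0.18 ± 0.11 at 1 month (edgeR adjusted p = 0.846 and 0.273). Fdft1 shares 774 exon bases with Ctsb on the other strand, a gene with a mean of 372 CPM against 78.1 CPM for Fdft1. The preparation did not keep the strand, so reads of the 2 genes cannot be told apart there and the Fdft1 values are uncertain.

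Sqle encodes squalene epoxidase, a rate-limiting enzyme of the sterol route. In 6-month retinas it stood at 44.8, 44.1 and 45.6 CPM in 5xFAD, against 48.6, 50.4 and 51.7 CPM in WT. The 1-month values were 50.3, 56.5 and 42.2 CPM in 5xFAD, against 42.2, 36 and 46.1 CPM in WT. The genotypes did not overlap at 6 months and overlapped at 1 month. Neither difference passed the threshold: the log2 fold change was -0.17 ± 0.13 at 6 months and 0.26 ± 0.13 at 1 month (edgeR adjusted p = 0.512 and 0.166). Its interaction was -0.43 ± 0.18 (edgeR adjusted p = 0.0889), and it passed without 5xFAD library 3 at 1 month (-0.53, edgeR adjusted p = 0.0452) or without WT library 3 at 1 month (-0.56, edgeR adjusted p = 0.0373).

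Lss encodes lanosterol synthase, which closes the ring system. At 6 months it had 61.7, 68 and 66.1 CPM in 5xFAD, against 71.6, 72.2 and 62.9 CPM in WT. In 1-month retinas it stood at 83.6, 102 and 87.2 CPM in 5xFAD, against 81.1, 69.4 and 71.7 CPM in WT. The 5xFAD libraries at 1 month were the 3 highest of the 12. The log2 fold change between genotypes was -0.08 ± 0.11 at 6 months and 0.29 ± 0.11 at 1 month, and neither passed the threshold (edgeR adjusted p = 0.756 and 0.0626). The 1-month difference passed without WT library 1 at 1 month (0.39, edgeR adjusted p = 0.0327), without 5xFAD library 1 at 6 months (0.32, edgeR adjusted p = 0.0434) or without 5xFAD library 3 at 6 months (0.31, edgeR adjusted p = 0.041). The interaction was -0.37 ± 0.15 (edgeR adjusted p = 0.0824), and passed without WT library 1 at 1 month (-0.49, edgeR adjusted p = 0.0345) or WT library 3 at 6 months (-0.44, edgeR adjusted p = 0.0485). With age Lss fell in 5xFAD (-0.48 ± 0.11, edgeR adjusted p = 0.003) and was not called in WT (-0.10 ± 0.11, edgeR adjusted p = 0.625). The 5xFAD fall held without any 1 library, but was -0.14 after the length and GC adjustment (edgeR adjusted p = 0.366) and missed the threshold without the 3 libraries high in ribosomal RNA (-0.44, edgeR adjusted p = 0.0563).

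Cyp51 encodes lanosterol 14-alpha-demethylase, the first enzyme that trims lanosterol. The 6-month values were 59.7, 61.5 and 64 CPM in 5xFAD, against 68.7, 71.7 and 63.7 CPM in WT. Among the 1-month libraries it had 62.1, 60.5 and 56.1 CPM in 5xFAD, against 58.1, 48.7 and 57.3 CPM in WT. The genotypes overlapped at both ages, by 1 library at 6 months, and no difference was called (-0.14 ± 0.11 and 0.12 ± 0.11, edgeR adjusted p = 0.517 and 0.48). With age in WT it was 0.31 ± 0.11 (edgeR adjusted p = 0.0668), with all 6-month libraries above all 1-month libraries, and DESeq2 called it (adjusted p = 0.0408). That value passed in edgeR without 5xFAD library 1 at 6 months (0.35, adjusted p = 0.0408) or without 5xFAD library 3 at 6 months (0.35, adjusted p = 0.0356). Cyp51 shares 166 exon bases with Akap9 on the other strand, which averaged 174 CPM.

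Dhcr7 encodes 7-dehydrocholesterol reductase, the last step to cholesterol. In 6-month retinas it stood at 27.9, 33.4 and 30.5 CPM in 5xFAD, against 27, 25.8 and 26.9 CPM in WT. At 1 month it had 30.9, 31.8 and 34.3 CPM in 5xFAD, against 35.4, 36.8 and 42.6 CPM in WT. Its order was the reverse of that of Srebf2: every 5xFAD library was above WT at 6 months and below WT at 1 month. Neither genotype difference passed the threshold (0.20 ± 0.14 and -0.24 ± 0.14, edgeR adjusted p = 0.441 and 0.229), nor did the interaction (0.45 ± 0.20, edgeR adjusted p = 0.0969). With age it fell in WT (-0.53 ± 0.14, edgeR adjusted p = 0.0153), to a mean of 26.6 ± 0.65 CPM at 6 months, against 38.3 ± 3.84 CPM at 1 month (SD, n = 3 each). In 5xFAD the value was -0.08 ± 0.14 (edgeR adjusted p = 0.73). The WT fall held after the length and GC adjustment (-0.48, edgeR adjusted p = 0.0166), and was lost without WT library 3 at 1 month (-0.40, edgeR adjusted p = 0.0979), WT library 1 at 6 months (-0.51, edgeR adjusted p = 0.0785) or WT library 2 at 6 months (-0.47, edgeR adjusted p = 0.116).

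Across the 12 libraries the 8 genes did not share 1 pattern. The 28 pairwise Pearson correlations of log2 CPM ran from -0.75 (Cyp51 with Dhcr7) to 0.72 (Lss with Srebf2, and Sqle with Cyp51), with a median of 0.22. Srebf2, Lss and Hmgcs1, all called lower with age in 5xFAD in these same libraries, correlated with each other at 0.58 to 0.72. Sqle correlated with Srebf2 at 0.56, with Hmgcs1 at 0.55 and with Lss at 0.29. Fdft1 ran against Lss (-0.66) and Srebf2 (-0.57). The summed level of the 8 was 565, 574 and 649 CPM in 5xFAD and 658, 681 and 629 CPM in WT at 6 months, and 686, 746 and 701 CPM in 5xFAD and 630, 568 and 631 CPM in WT at 1 month. The 5 genes most like the mean pattern of the 8 over the 12 libraries, among 10448 with a mean of at least 10 CPM, were A330076H08Rik (Pearson r = 0.974), Prickle2 (0.963), Kcnd3 (0.956), Lgr5 (0.951) and Kif5b (0.951). The points share depth and the group differences in transcript length given above, so these correlations are descriptions.

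At the level of transcripts, the 8 genes have 49 annotated forms, of which 23 passed the filter: 13 of 26 coding, 9 of 17 classed as retained intron, 1 of 2 classed as nonsense-mediated decay and 0 of 4 other processed transcripts. No member's form was called at 6 months between genotypes, where 0.488% of all 45326 tested transcripts were, and 2 were called at 1 month, where 2.52% were. Srebf2-201, the main coding form with 84.9% of the gene's counts, had 106, 112 and 91.2 CPM in 5xFAD and 119, 128 and 114 CPM in WT at 6 months. The 1-month values were 140, 160 and 157 CPM in 5xFAD, against 113, 92 and 114 CPM in WT. It was called higher in 5xFAD at 1 month (0.54 ± 0.11, edgeR adjusted p = 0.029) and lower at 6 than at 1 month in 5xFAD (-0.60 ± 0.11, edgeR adjusted p = 0.0175), 1 call against 3.12% of all tested transcripts. The 1-month call was missed in 8 of the 12 fits that left out 1 library (0.39 to 0.60 over the 12). The 4 that kept it were those without WT library 1 at 1 month, 5xFAD library 1 or 3 at 6 months, or WT library 3 at 6 months. The age call was missed without 5xFAD library 2 or 3 at 1 month or any 1 of the 5xFAD libraries at 6 months (-0.65 to -0.49 over the 12).

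**Figure D3:**
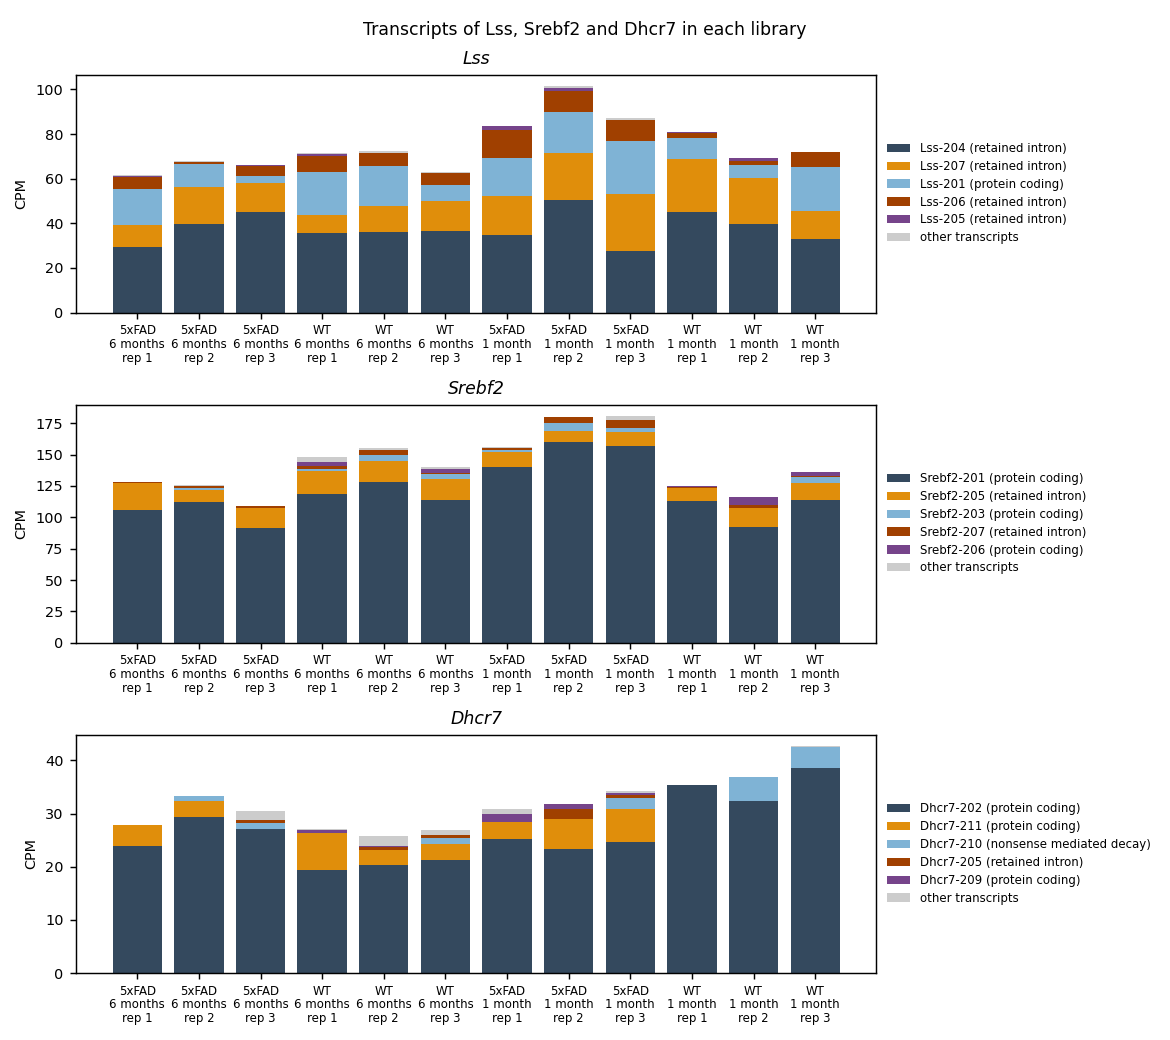
CPM (vertical axis, from 0) of the annotated transcripts of Lss, Srebf2 and Dhcr7, stacked for each of the 12 libraries (horizontal axis), with each form's annotated class in the legend. Lss counts lie mostly in forms classed as retained intron, Srebf2 counts mostly in the coding form Srebf2-201, and Dhcr7-211 is at 0 in the 3 WT libraries at 1 month.

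Most Lss counts were assigned to forms that the annotation classes as retained intron. Their share of Lss counts was 84.6 ± 10.7% in 5xFAD and 78.7 ± 8.42% in WT at 6 months, and 77.5 ± 5.03% in 5xFAD and 84.3 ± 10.1% in WT at 1 month (SD, n = 3 each). Lss-204 held 51.2% and Lss-207 21.3% of Lss counts, while the coding form Lss-201 held 18.4%. Srebf2 had 14.5 ± 4.05% in 5xFAD and 14.8 ± 0.608% in WT at 6 months, and 8.74 ± 1.43% in 5xFAD and 11.7 ± 3.29% in WT at 1 month. The genotypes overlapped for each of the 8 genes at both ages, with exact two-sided permutation p of at least 0.3, in a design that cannot go below 0.1. Such forms share exons with the coding forms, so short reads are divided between them by estimation.

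Dhcr7 showed the same limit. Dhcr7-202, with 83% of its counts, had 23.8, 29.3 and 27 CPM in 5xFAD and 19.4, 20.3 and 21.2 CPM in WT at 6 months. In 1-month retinas it stood at 25.2, 23.3 and 24.6 CPM in 5xFAD, against 35.4, 32.4 and 38.5 CPM in WT. The second coding form, Dhcr7-211, had 48.4, 38.3 and 0.7 expected counts in 5xFAD and 103.7, 57.3 and 50.6 in WT at 6 months. Among the 1-month libraries it had 37.2, 61.2 and 70.5 expected counts in 5xFAD and 0 in each WT library. With a chosen floor of 3 counts in place of 0 in each WT library, the fold of 5xFAD over WT at 1 month was 19.2. The 0 values are themselves estimates from divided reads, so this fold is not a lower bound. Dhcr7-211 was called higher in 5xFAD at 1 month (edgeR adjusted p = 0.0372). Among the 12 fits that left out 1 library, only that without 5xFAD library 3 at 6 months kept the call. A single 5xFAD library at 6 months was also near 0. The interaction was called for Srebf2-201 (-0.81 ± 0.15, edgeR adjusted p = 0.0124), Dhcr7-202 (0.87 ± 0.21, edgeR adjusted p = 0.0355) and Dhcr7-211 (edgeR adjusted p = 0.0284), 3 of 23 forms against 6.05% of all tested transcripts. The Srebf2-201 interaction was missed without 5xFAD library 2 at 1 month (-0.71, edgeR adjusted p = 0.0502) or WT library 2 at 6 months (-0.70, edgeR adjusted p = 0.0619). That of Dhcr7-202 was kept in 2 of 12 fits, without WT library 2 at 1 month or 5xFAD library 1 at 6 months (0.82 to 1.00 over the 12), and that of Dhcr7-211 in 2 of 12, without 5xFAD library 3 or WT library 3 at 6 months. With age in WT, Dhcr7-202 fell (-0.77 ± 0.15, edgeR adjusted p = 0.0423), 1 of 23 forms against 0.916% of all tested transcripts, and only the fit without 5xFAD library 1 at 6 months kept that call among the 12 (-0.84 to -0.72).

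The rest of the route was read from 14 other sterol synthesis genes, all tested. Their counts, and those of the lists after them, stand beside 6.38% of all tested genes called at 6 months, and 19.6% called at 1 month, 10.7% as higher. At 6 months 1 was called higher in 5xFAD and 1 lower, with a median log2 fold change of 0.08. The higher one was Lbr, a sterol reductase of the nuclear envelope (0.53, edgeR adjusted p = 0.026), whose call was lost without any 1 of the 5xFAD libraries or WT library 1 or 2 at 6 months, and the lower one Sc5d. At 1 month 3 were higher and 2 lower, with a median of -0.18. The 5 calls became 1 after the length and GC adjustment or without WT library 2 at 1 month, and 3 without 5xFAD library 2 or 3 or WT library 3 at 1 month. Sc5d, the desaturase just before Dhcr7 in the route, had 32.4, 40.5 and 48.3 CPM in 5xFAD and 65, 63.5 and 57.7 CPM in WT at 6 months. At 1 month it had 60.9, 67 and 57 CPM in 5xFAD, against 42.8, 33.3 and 38.4 CPM in WT. Like Srebf2, its 5xFAD libraries were below WT at 6 months and above WT at 1 month, and both differences passed the threshold (-0.62 ± 0.14 and 0.69 ± 0.14, edgeR adjusted p = 0.00841 and 0.00104), as did the interaction (-1.31 ± 0.19, edgeR adjusted p = 3.2e-05). Without the 3 libraries high in ribosomal RNA the 6-month value was -0.36 (edgeR adjusted p = 0.278), and after the length and GC adjustment the interaction was -0.87 and the 1-month value 0.42, both still called.

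Hsd17b7, a sterol ketone reductase, was higher in 5xFAD at 1 month too (0.80 ± 0.22, edgeR adjusted p = 0.0118), and lost the call without WT library 2 at 1 month (0.73, edgeR adjusted p = 0.059) or after the length and GC adjustment (0.55, edgeR adjusted p = 0.0864). The 2 lower genes at 1 month were Fdps and Pmvk, both of the mevalonate pathway. After that adjustment Fdps was -0.10 instead of -0.40 and Pmvk -0.24 instead of -0.58, and neither was called (edgeR adjusted p = 0.643 and 0.391). Fdps also lost the call without 5xFAD library 3, WT library 1 or WT library 2 at 1 month, and Pmvk without 5xFAD library 2, WT library 2 or WT library 3 at 1 month, with values of -0.46 to -0.29 and -0.75 to -0.40 over the 12 fits.

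Uptake and transport of cholesterol inside the cell was read from 12 genes. None was called at 6 months (median log2 fold change -0.18), and 3 were higher in 5xFAD at 1 month (median 0.25): Vldlr, Stard4 and Lrp8. The 3 calls became 1 after the length and GC adjustment or without 5xFAD library 2 or 3 or WT library 1 or 2 at 1 month, and 5 in DESeq2, without WT library 3 at 1 month, or without 5xFAD library 1 or 3 at 6 months. The 6-month count was 1 in DESeq2 or without WT library 3 at 6 months, and 2 without 5xFAD library 3 at 6 months. Vldlr, a lipoprotein receptor, was at 0.39 (edgeR adjusted p = 0.00317) and at -0.05 after the length and GC adjustment. Lrp8 likewise was at 0.30 and at -0.05, and Stard4, a sterol carrier, at 0.64 and 0.32, with neither called after it. The Stard4 call was lost without any 1 of the 6 libraries at 1 month (0.54 to 0.72 over the 12 fits), and the Lrp8 call without any 1 of them but 5xFAD library 1 (0.26 to 0.36).

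Of 10 genes that regulate SREBP processing, 1 was called higher at 6 months, Srebf1 (0.40 ± 0.11, edgeR adjusted p = 0.0238), and 1 at 1 month, Rnf139, a ubiquitin ligase of the endoplasmic reticulum (0.59 ± 0.13, edgeR adjusted p = 0.00319). The Srebf1 call was lost without 5xFAD library 1 or 2 or WT library 1 or 2 at 6 months (0.32 to 0.46 over the 12 fits), without the 3 libraries high in ribosomal RNA (0.20, edgeR adjusted p = 0.521) or with only the 2 groups compared fitted (0.41, edgeR adjusted p = 0.0703), and the Rnf139 call after the length and GC adjustment (0.31, edgeR adjusted p = 0.106). Insig1, which holds SREBP in the endoplasmic reticulum and is itself a target of SREBP2, had 87.2, 86.1 and 103 CPM in 5xFAD and 76.4, 84.2 and 90.1 CPM in WT at 6 months, and 96.5, 96 and 84.4 CPM in 5xFAD and 91.2, 83.2 and 76.2 CPM in WT at 1 month. It was not called at either age (0.14 ± 0.11 at both, edgeR adjusted p = 0.508 and 0.392).

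SREBP1, the sister factor of SREBP2, has its own targets in fatty acid synthesis. Of 10 such genes, 1 was called lower at 6 months (median log2 fold change -0.24) and 5 were called higher in 5xFAD at 1 month (median 0.35), and the interaction was called lower for 7 (median -0.55), against 13.3% of all tested genes. After the length and GC adjustment 4 interactions were called. The 6-month count was 4 in DESeq2, and 2 after that adjustment or without WT library 3 at 1 month, 5xFAD library 2 or 3 at 6 months or WT library 3 at 6 months. Scd2, the main stearoyl-CoA desaturase of neural tissue, had 332, 335 and 347 CPM in 5xFAD and 456, 461 and 462 CPM in WT at 6 months. Among the 1-month libraries it had 461, 532 and 556 CPM in 5xFAD, against 323, 285 and 353 CPM in WT. It was lower in 5xFAD at 6 months (-0.44 ± 0.09, edgeR adjusted p = 0.00426) and higher at 1 month (0.69 ± 0.09, edgeR adjusted p = 1.8e-05), with an interaction of -1.13 ± 0.13 (edgeR adjusted p = 1.41e-06). After the length and GC adjustment these were -0.25, 0.43 and -0.68, all still called, and without the 3 libraries high in ribosomal RNA the 6-month value missed the threshold (-0.41, edgeR adjusted p = 0.0776). Scd1 (1.26 ± 0.22), Acly (0.45 ± 0.09) and Fasn (0.47 ± 0.10) were also higher at 1 month (edgeR adjusted p = 0.000303, 0.00101 and 0.00156). That adjustment left Scd1 at 1.02 and Acly at 0.33, both called, and Fasn at 0.16, not called (edgeR adjusted p = 0.217).

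**Figure D4:**
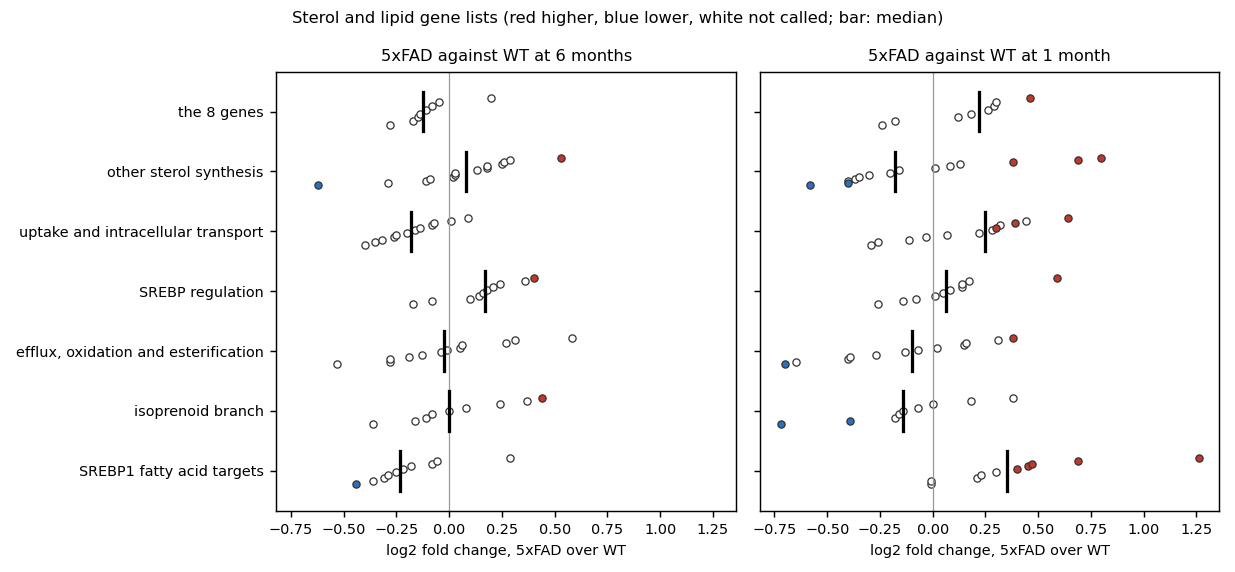
Log2 fold change of 5xFAD over WT (horizontal axis) for each tested gene of 7 lists (vertical axis), at 6 months (left) and 1 month (right). Red points were called higher, blue points lower and white points were not called, and the black bar is the list's median. The SREBP1 fatty acid targets have a median of -0.24 at 6 months and 0.35 at 1 month, and the 8 genes one of -0.13 and 0.22, which after the length and GC adjustment was -0.01 and 0.03.

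The isoprenoid branch and the removal of cholesterol were the other lists. Of 9 isoprenoid genes 1 was called higher at 6 months and 2 lower at 1 month, and Coq2, the prenyltransferase of ubiquinone synthesis, was in both counts. The other lower gene at 1 month was Fnta, a subunit of the protein prenyltransferases (-0.39, edgeR adjusted p = 0.0204, not called after the length and GC adjustment at -0.21). Coq2 had 75.4, 75.8 and 69.5 CPM in 5xFAD and 53.2, 55 and 54.1 CPM in WT at 6 months, and 50.3, 45.6 and 49 CPM in 5xFAD and 65.9, 81.2 and 91.6 CPM in WT at 1 month. Its 5xFAD libraries lay above WT at 6 months and below WT at 1 month, the reverse of Srebf2, with an interaction of 1.16 ± 0.17 (edgeR adjusted p = 2.02e-05) that was 0.91 after that adjustment and still called. Its 6-month call (0.44, edgeR adjusted p = 0.0233) was lost without the 3 libraries high in ribosomal RNA, or without 5xFAD library 1 or 2 or WT library 1 or 2 at 6 months. Of 12 tested genes of efflux, oxidation and esterification, 0 were called at 6 months, and 1 was higher and 1 lower in 5xFAD at 1 month. The higher one was the exporter Abcg1 (0.38, edgeR adjusted p = 0.00653) and the lower one Cyp46a1, the cholesterol 24-hydroxylase of neurons (-0.70, edgeR adjusted p = 0.0117), and neither was called after that adjustment (0.15 and -0.48). Leaving out 5xFAD library 2 or WT library 2 at 1 month also ended the Cyp46a1 call. Abca1, which exports cholesterol, and Apoe, an apolipoprotein that carries it between cells, were called at neither age (Abca1 -0.13 ± 0.16 at 6 months and -0.07 ± 0.16 at 1 month, Apoe -0.28 ± 0.14 and -0.40 ± 0.14).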

How the data were processed

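Expected counts, fractional and not scaled to depth, were deposited by the authors for each gene and each transcript of 12 whole-retina libraries. The submitters' processing notes name GRCm38.p6 as the build and list the tools DESeq2 1.32.0, RSEM 1.3.3, STAR 2.7.1a and Trim Galore 0.6.6, while their roles and the annotation are not given in the sources used here. Per the labels' protocols, RNA was poly-A selected with a TruSeq RNA v2 kit, which does not mark strand.

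After rounding, these counts were tested with edgeR 4.0.16, which builds on limma 3.58.1, under R 4.3.3 with the package data.table, version 1.17.8. The quasi-likelihood F test used TMM scaling, filterByExpr, robust estimation and all 12 libraries at once, leaving 8 residual degrees of freedom. Benjamini-Hochberg adjustment ran over all 16233 genes or 45326 transcripts tested, and a feature was called below 0.05. Standard errors are the absolute log2 fold change divided by the square root of F. DESeq2 1.42.0 was an alternative test, beside other filters and scalings, a replicate block, removal of a spline trend on transcript length and GC content, and fits that left out libraries. CPM values were computed here with TMM-scaled totals, and TPM values from transcript expected counts over GENCODE M21 lengths. That annotation, on GRCm38, matched 55227 of 55487 gene identifiers and 141469 of 142699 transcript identifiers. Libraries of a group differed beyond counting error (chi-square per degree of freedom 4.05 to 26.7), so none was a copy of another.

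The 8 genes, the other lists and the rule for naming genes were chosen with earlier results of these data known. The rule named all 8 genes, up to 4 called genes with the smallest p per other list and comparison, 6 further genes always, and the 5 genes most like the mean pattern. Of the other list genes that it allowed, those in the text were picked after their values were seen, and some that the rule allowed are not reported here. The test was checked on simulated data. Sequences were read with pandas 2.3.3 under Python 3.11.15, and matplotlib 3.10.9 drew the figures.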

Additional observations from a re-analysis of the deposited data

Results flagged for a closer look

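The interaction of genotype and age in the edgeR fit was called for Srebf2 and for 3 transcripts of the 8 genes. Over all features, 25.0% of tested genes and 6.05% of tested transcripts were called. For Srebf2 the interaction was -0.74 on the log2 scale. For its main coding form Srebf2-201, which holds 84.9% of the gene's counts, it was -0.81. For Dhcr7-202 it was 0.87, in the opposite direction. The interactions of Dhcr7-202 and Dhcr7-211 were each called in only 2 of the 12 fits that left out 1 library. For Dhcr7-211 the fitted value was -9.97, which depends on the prior count because the 3 WT libraries at 1 month held 0 counts, and is no measure of size.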

How the results depend on the processing

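Of the log2 fold changes of the 8 genes over all settings, 810 kept their direction and side of the threshold, 19 lost a call, 25 gained one and 18 changed sign, and none of the 18 was of a called value. After adjusting each library for transcript length and GC content, the sign changed for Cyp51 at 1 month (-0.06), Lss (0.13), Cyp51 (0.01) and Fdft1 (0.01) at 6 months, the Lss (0.12) and Cyp51 (0.06) interactions, and Hmgcs1 (-0.06) and Idi1 (0.00) with age in WT, and also for Vldlr and Lrp8 at 1 month (-0.05 each). Without the 3 libraries richest in ribosomal RNA it changed for Hmgcs1 (0.16), Fdft1 (0.08) and Idi1 (0.33) at 6 months, the Idi1 interaction (0.14), Idi1 with age in 5xFAD (0.32) and Hmgcs1 with age in WT (0.00). Leaving out 1 library changed it for Idi1 at 6 months (0.09, in a range of -0.44 to 0.09) and with age in 5xFAD (0.07, in a range of -0.45 to 0.07), and with age in WT for Hmgcs1 (-0.01, in a range of -0.01 to 0.20) and Lss (0.00, in a range of -0.15 to 0.00). The cause was not tested.

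At 1 month the members called were 2 instead of 1 with the DESeq2 test, with no filter, with a filter of 1 CPM in 3 libraries, or without pseudogenes, mitochondrial and ribosomal RNA genes, and 3 with only the compared groups fitted. At 6 months DESeq2 called 1 instead of 0. The interaction gave 2 instead of 1 with no filter. With age in 5xFAD, 1 instead of 3 was called after that adjustment or without the ribosomal-RNA-rich libraries. With age in WT, 2 instead of 1 were called by DESeq2 or with the 1 CPM filter. Over the fits that left out 1 library, the members called ran from 1 to 3 at 1 month, 0 to 0 at 6 months, 1 to 3 for the interaction, 2 to 4 with age in 5xFAD and 0 to 2 with age in WT, and member transcripts from 0 to 2, 0 to 0, 0 to 2, 0 to 1 and 0 to 1 in the same order. Members whose retained-intron share did not overlap between genotypes ran from 0 to 1 at each age in such fits, which were added after seeing the data. Scaling by library size alone called 1 member transcript instead of 2 at 1 month.

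Replicate numbers did not pair the libraries (correlations of same-numbered deviations from -0.09 to 0.06). With the replicate number as a block, the Hmgcs1 fall with age in 5xFAD missed the threshold (-0.38, edgeR adjusted p = 0.0561), member transcripts called were 0 instead of 2 at 1 month, 1 instead of 3 for the interaction, 0 instead of 1 with age in 5xFAD and 0 instead of 1 with age in WT, and no other call of the 8 genes changed.

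Over all genes at 6 months, 403 were called higher and 632 lower, against 1188 and 382 after that adjustment, 501 in all with only the compared groups, and 321 in all without the ribosomal-RNA-rich libraries. At 1 month 1732 higher and 1446 lower became 751 and 1116 after that adjustment. For the interaction 1892 and 2162 became 2183 and 1045, with age in 5xFAD 1760 and 2012 became 1736 and 803, and with age in WT 976 and 729 became 738 and 1256. Without the ribosomal-RNA-rich libraries 2354 interactions and 1947 changes with age in 5xFAD were called, instead of 4054 and 3772. Leaving out 1 library moved the totals to 276 to 1687 at 6 months, 1893 to 3501 at 1 month and 780 to 2099 with age in WT.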
